A study of Mus musculus with 11 samples.

Results

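The forkhead (Fox) genes of mouse embryonic stem cells (ESCs) were examined across RNA-seq of Cbx6 knockdown and ChIP-seq of the Polycomb proteins CBX6, CBX7 and RING1B. Members were taken from the expression table by name, as symbols that start with Fox, a subfamily letter from a to s and a number. Foxl2os, an antisense transcript gene that the pattern also takes in, was left out because its name holds os. This gave 44 genes out of 23288 symbols, and all 44 had coordinates on the mm9 assembly.

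All cells came from E14Tg2A, a line of mouse ESCs, and were grown without feeder cells in serum and leukemia inhibitory factor. RNA was sequenced from 2 libraries of ESCs infected with a lentivirus carrying a control shRNA (shCtl) and 2 libraries with an shRNA against Cbx6 (shCbx6), after antibiotic selection. ChIP-seq peaks came from 2 anti-HA experiments in ESCs whose endogenous CBX6 carries a triple HA tag, a line raised from sorted single cells, and from 1 experiment each with antibodies against CBX7 and RING1B. Which of the hairpins against Cbx6 each library carries is not stated. Nothing in the labels says whether replicates of a group were separate cultures, so p-values measure the spread between these libraries, which may be technical.

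Forkhead proteins share a winged-helix DNA-binding domain and are grouped into lettered subfamilies. Many of them direct the formation of particular tissues in the embryo, while several members of the FOXJ, FOXK, FOXM, FOXN, FOXO and FOXP subfamilies are found in most cell types, where they act in growth control, metabolism and the cell cycle. Polycomb repressive complex 1 (PRC1) holds developmental regulators silent in ESCs. RING1B is its ubiquitin ligase, and each canonical form of the complex holds a CBX protein, of which CBX7 binds methylated histone H3. Its targets in mammals typically have promoters rich in CpG dinucleotides.

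The 250 bases upstream of the annotated start of 6 members, in the direction of transcription, show the range of promoters in the family. They were read from the mm9 genome, with every CG dinucleotide in capitals. Foxi3 (chr6:70906275-70906524, plus strand), Foxd1 (chr13:99123950-99124199, plus strand) and Foxf2 (chr13:31717435-31717684, plus strand) are developmental genes with peaks of all 4 lists. Foxi1 (chr11:34108090-34108339, minus strand) and Foxs1 (chr2:152758945-152759194, minus strand) are developmental genes without a peak in any list. Foxh1 (chr15:76500379-76500628, minus strand) is the member with the highest level in these ESCs.
Foxi3: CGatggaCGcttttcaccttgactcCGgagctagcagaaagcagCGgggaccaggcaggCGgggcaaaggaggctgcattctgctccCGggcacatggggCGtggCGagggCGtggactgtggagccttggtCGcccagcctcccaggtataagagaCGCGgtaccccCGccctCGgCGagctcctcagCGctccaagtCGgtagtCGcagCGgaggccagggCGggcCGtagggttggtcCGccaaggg
Foxd1: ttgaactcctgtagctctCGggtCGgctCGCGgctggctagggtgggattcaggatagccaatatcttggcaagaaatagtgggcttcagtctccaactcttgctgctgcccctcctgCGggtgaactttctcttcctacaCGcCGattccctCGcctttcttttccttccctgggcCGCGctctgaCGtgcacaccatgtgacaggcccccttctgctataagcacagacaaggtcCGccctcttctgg
Foxf2: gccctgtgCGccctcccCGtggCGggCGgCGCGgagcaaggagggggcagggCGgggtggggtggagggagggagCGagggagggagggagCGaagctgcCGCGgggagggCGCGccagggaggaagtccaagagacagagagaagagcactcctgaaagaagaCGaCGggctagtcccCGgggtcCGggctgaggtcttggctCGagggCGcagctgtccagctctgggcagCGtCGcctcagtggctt
Foxi1: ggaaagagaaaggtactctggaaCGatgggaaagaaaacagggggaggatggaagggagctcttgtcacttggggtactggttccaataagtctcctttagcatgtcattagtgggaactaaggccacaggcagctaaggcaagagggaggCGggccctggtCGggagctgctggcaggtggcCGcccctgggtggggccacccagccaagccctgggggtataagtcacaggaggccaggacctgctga
Foxs1: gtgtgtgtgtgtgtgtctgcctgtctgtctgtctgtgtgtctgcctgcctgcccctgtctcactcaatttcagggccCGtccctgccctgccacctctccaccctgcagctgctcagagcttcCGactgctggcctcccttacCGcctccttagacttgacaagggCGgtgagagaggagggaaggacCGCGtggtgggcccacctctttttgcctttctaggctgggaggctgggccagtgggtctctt
Foxh1: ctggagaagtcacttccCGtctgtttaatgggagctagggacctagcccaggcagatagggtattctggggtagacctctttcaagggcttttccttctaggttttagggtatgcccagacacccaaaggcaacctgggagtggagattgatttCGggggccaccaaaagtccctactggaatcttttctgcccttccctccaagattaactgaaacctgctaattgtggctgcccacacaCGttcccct
The stretches of Foxi3, Foxd1 and Foxf2 hold 22, 12 and 21 CG dinucleotides. Those of Foxi1, Foxs1 and Foxh1 hold 4, 6 and 3. The same stretch held a median of 9 over 21921 genes, with quartiles of 3 and 18.

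The RNA libraries were close in depth. Relative to shCtl replicate 1, the step that a single fragment makes in low values put the depth at 1.01 for shCtl replicate 2 and at 0.956 and 1.13 for the shCbx6 replicates. The number of reads is not in the table, whose unit is FPKM, the number of fragments corrected for transcript length and for library size. Cbx6 itself was read at 17.4 and 14.9 FPKM with shCtl and at 9.53 and 5.4 FPKM with shCbx6 (limma adjusted p = 0.247, log2 fold change −1.06 with a standard error of 0.263). The 9 ESC markers, such as Pou5f1 and Nanog, each reached 1 FPKM in at least 1 library, with sums of 7735 and 8840 FPKM with shCtl and 7090 and 6052 FPKM with shCbx6, and 7 of the 9 were below and 1 above both shCtl values in both shCbx6 libraries, as were 24.4% and 18.9% of all tested genes. Primitive endoderm markers summed to 12.3 and 11.4 FPKM with shCtl and 4.82 and 4.84 FPKM with shCbx6, where 3 of the 8 were above and 4 below both shCtl values, and the sum without Lama1 overlaps between groups. By the same measure 3 of 8 fibroblast markers were above and 1 below, 2 of 5 neuroectoderm markers above and 2 below, and 3 of 5 mesoderm markers above and 1 below. Summed fibroblast markers were 1.76 and 1.72 FPKM with shCtl and 1.34 and 4.65 FPKM with shCbx6, with Fap listed at 0 in every library. Neuroectoderm markers summed to between 26.4 and 39.5 FPKM and mesoderm markers to between 1.83 and 3.10 FPKM over the 4 libraries. The part of any such cells in the results below was not tested, and in RNA from whole cultures fewer cells of a type and less RNA per cell cannot be told apart.

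Levels in the control ESCs were set beside the known role of each member. The roles were assigned from general knowledge but with these levels known, so the counts by role are a description. With 1 FPKM as the mean of both shCtl libraries at which a gene counts as expressed, the level the methods of the study use, 16 members were expressed and 28 were silent. Of 12 members known for broad expression, 12 were expressed. Of 30 members known for particular tissues or later stages, 28 were silent, with Foxr1 and Foxr2 above the line. Foxd3 and Foxh1, factors of the pluripotent cells and the early embryo, were both expressed. The median level was 9.52 FPKM for the expressed members and 0.0250 FPKM for the silent ones. Nearest to the line were Foxj2 at 1.02 FPKM on the expressed side and Foxn4 at 0.890 FPKM and Foxa3 at 0.849 FPKM on the silent side, and their replicates straddle or approach it, so their placing is uncertain.

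**Figure D1:**
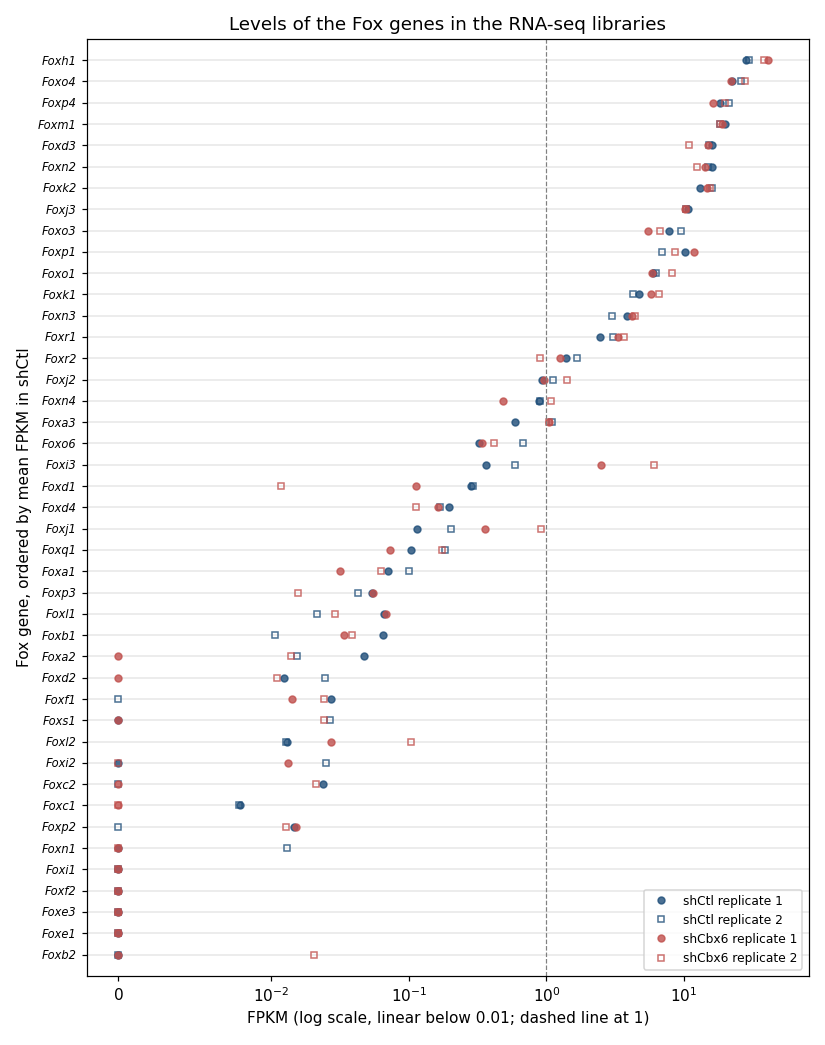
FPKM of 43 of the Fox genes in each of the 4 RNA-seq libraries, on a log axis that is linear below 0.01, ordered by the mean of shCtl. Circles are replicate 1 and squares replicate 2, and 27 of the genes drawn have a shCtl mean left of the dashed line at 1 FPKM, while Foxi3 lies right of it in both shCbx6 libraries.

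Foxh1, the nuclear partner of SMAD proteins in Nodal signalling, had the highest level, at 28.3 and 29.5 FPKM in the shCtl libraries. Foxo4, which like other FOXO factors is held in the cytoplasm by AKT phosphorylation, followed at 22.1 and 25.9 FPKM. Foxp4, a repressor expressed widely in the embryo, was read at 18.2 and 21.3 FPKM. Foxm1, a driver of mitotic gene expression, was read at 19.8 and 18.2 FPKM. Foxo4 lay above both of these in each library, while the replicates of Foxp4 and Foxm1 overlap and do not set an order between them.

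Foxd3, which is needed for pluripotent cells and later for neural crest, stood at 16.0 and 15.0 FPKM with shCtl. Foxn2 was level with it at 16.0 and 14.9 FPKM. Foxk2, a repressor of autophagy and glycolytic regulator, had 13.1 and 15.9 FPKM, and Foxj3 had 10.7 and 10.2 FPKM. The values of Foxd3 and Foxn2 overlap, and both overlap those of Foxk2. Foxo3 (7.72 and 9.43 FPKM), Foxp1 (10.2 and 6.85 FPKM) and Foxo1 (5.99 and 6.28 FPKM) came next. Foxo3 and Foxp1 overlap, and Foxo1 lies below both. Foxk1 had 4.69 and 4.27 FPKM, Foxn3 3.86 and 2.97 FPKM, Foxr1 2.44 and 3.02 FPKM, Foxr2 1.38 and 1.66 FPKM and Foxj2 0.923 and 1.11 FPKM. Of these, Foxn3 and Foxr1 overlap and the others are set apart by both libraries.

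Among the 28 silent members, 23 were under 0.3 FPKM in every one of the 4 libraries. The exceptions were Foxa3, Foxi3, Foxj1, Foxn4 and Foxo6. Foxe1, Foxe3, Foxf2 and Foxi1, which act in thyroid, lens, gut mesenchyme and inner ear and kidney, were listed at 0 in all 4 libraries. In all, 14 members were listed at 0 in at least 1 library. Low values rest on few fragments: Foxc1, needed for eye and heart, was read at 0.00798 and 0.00788 FPKM with shCtl and listed at 0 in shCbx6, which at these depths is a ratio of 1 to 1 to 0 to 0. At such levels a direction between groups rests on single fragments. Foxf1, whose CBX6 replicate 1 peak has the highest score of the family, was read at 0.0272 and 0 FPKM with shCtl and 0.0142 and 0.0241 FPKM with shCbx6.

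Peaks were assigned to a gene where they touched, by at least 1 bp, the gene itself or the 2.5 kb before its start. Depth behind the peak lists is unknown here, and lists were called for each sample on its own. Of the 44 members, 25 had a RING1B peak (56.8%), against 16.1% of the 21921 genes with coordinates. CBX7 peaks lay at 27 members (61.4%, against 17.9% of all genes) and CBX6 replicate 2 peaks at 24 (54.5%, against 16.6%). CBX6 replicate 1, whose list is the longest with 21865 peaks, had peaks at 39 members (88.6%, against 56.9% of all genes). All 4 lists together held peaks at 24 members (54.5%, against 11.5% of all genes).

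The silent members carried most of this. RING1B peaks were found at 21 of the 28 silent members (75%), while 22.6% of all 10967 silent genes had one. The shares for CBX7 were 23 of 28 (82.1%) against 24.3% of silent genes, and for CBX6 replicate 2 they were 21 of 28 (75%) against 21.2%. CBX6 replicate 1 peaks lay at 25 of the 28 (89.3%, against 34.3%). The 21 silent members with a RING1B peak were the 21 with a CBX6 replicate 2 peak, and they were the 21 found in all 4 lists.

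Expressed members had smaller shares than silent ones in all 4 lists, with the smallest gap in CBX6 replicate 1. RING1B and CBX7 peaks each lay at 4 of the 16 expressed members (25%), where 9.54% of the 10954 expressed genes had a RING1B peak and 11.5% a CBX7 peak. CBX6 replicate 2 had peaks at 3 of them (18.8%, against 12.0% of expressed genes). CBX6 replicate 1 had peaks at 14 of the 16 (87.5%), a share near the 79.5% of all expressed genes. No test was made on these shares, since genes of a family are not independent replicates. With the window narrowed to 2.5 kb on either side of the start, all 25 members with a RING1B peak kept it, and CBX6 replicate 1 had peaks at 24 silent and 11 expressed members.

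By subfamily, the genes in all 4 lists included all members of the B, C, D, E, F, L and Q subfamilies. These are Foxb1 and Foxb2 of the brain, Foxc1 and Foxc2 of mesoderm and vessels, Foxd1, Foxd2, Foxd3 and Foxd4, Foxe1 and Foxe3, Foxf1 and Foxf2 of gut and lung mesenchyme, Foxl1 and Foxl2, the latter of the ovary, and Foxq1. Foxl1 is listed as a pseudogene in the annotation used. Of the 3 A members, which open chromatin in endoderm, Foxa1 and Foxa2 were in all 4 lists and Foxa3 was in CBX6 replicate 1 alone. Of the I members Foxi2 and Foxi3 were in all 4 and Foxi1 in none. Foxp2, Foxo6, Foxo1 and Foxj2 were also in all 4. No member of the H, K, M, N, R and S subfamilies was in all 4 lists.

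The 7 silent members without RING1B were Foxa3, Foxi1, Foxj1, Foxn1, Foxn4, Foxp3 and Foxs1. Foxi1, Foxp3, the factor of regulatory T cells, and Foxs1 had no peak in any list. Foxn1, the factor of thymic epithelium, had CBX6 replicate 1 peaks with a highest score of 71.1, none of them near its start. Foxj1, the factor of motile cilia, and Foxn4, of retina and spinal cord, had a CBX7 peak each, with scores of 71.7 and 131. Both of these scores are below the median of the CBX7 list, 300.4.

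**Figure D2:**
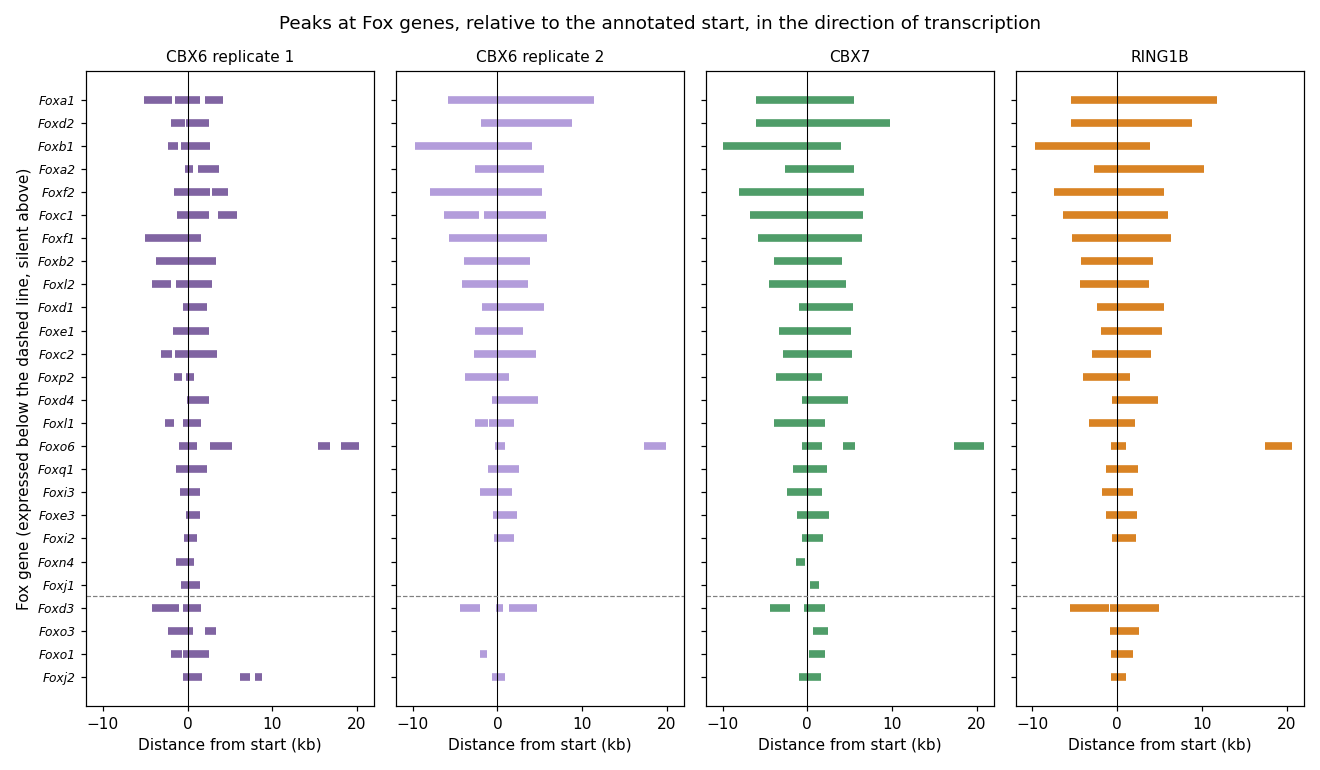
Peaks of the 4 lists at 26 of the Fox genes with a peak of CBX6 replicate 2, CBX7 or RING1B, as distance in kb from the annotated start along the direction of transcription, drawn from 12 kb upstream to 22 kb downstream. Each bar is a peak, silent genes stand above the dashed line and expressed ones below, and the bars of CBX6 replicate 2, CBX7 and RING1B overlap at the silent genes drawn other than Foxj1 and Foxn4, which have a CBX7 bar and none of the other two.

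At silent members the peaks were wide. The widest RING1B peak of each of the 21 had a median width of 7251 bp, from 2765 bp at Foxi2 to 14336 bp at Foxd2, where the 2477 silent genes with a RING1B peak had a median of 2580 bp. For CBX7 the median was 6330 bp against 2531 bp, and for CBX6 replicate 2 it was 7285 bp against 1998 bp. In CBX6 replicate 1 it was 2664 bp against 1696 bp. Among the 100 widest peaks of the RING1B list were peaks at 7 members, namely Foxa1, Foxa2, Foxb1, Foxc1, Foxd2, Foxf1 and Foxf2. In each of the CBX7 and CBX6 replicate 2 lists it was 5 members, Foxa1, Foxb1, Foxd2, Foxf1 and Foxf2. In CBX6 replicate 1 it was 2 members, Foxb2 and Foxf1.

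The peaks of the proteins covered each other closely at these genes. A median of 98.6% of the RING1B peak bases at the 21 silent members lay under CBX7 peaks, with the lowest share, 81.0%, at Foxd1. The median under CBX6 replicate 2 peaks was 95.3%, from 72.5% at Foxo6 to 100% at Foxb1. Under CBX6 replicate 1 it was 64.6%, with the highest share, 95.2%, at Foxq1. The MACS score, which rises as the p-value of a peak falls, was exactly 3100, a value that many peaks share, at 17 of the 21 silent members in RING1B, at 17 in CBX7 and at 9 in CBX6 replicate 2. The RING1B score of Foxl1 differs from this value by less than 1. Of the 4180 RING1B peaks 507 have this score and 24 a higher one, so the 17 genes cannot be ranked by it. In CBX6 replicate 1, where no member has that score, Foxf1 was highest at 840 among the silent members.

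Fox genes that are neighbours on a chromosome had separate domains. Foxf1, Foxc2 and Foxl1 follow each other on chromosome 8, 29.2 kb and 9.05 kb apart, and their RING1B peaks were 22.5 kb and 4.42 kb apart. On chromosome 13, Foxq1 and Foxf2 lie 64.8 kb apart and Foxf2 and Foxc1 lie 175.2 kb apart, with gaps of 57.7 kb and 169 kb between RING1B peaks. Foxd2 and Foxe3 on chromosome 4 lie 16.2 kb apart, with RING1B peaks 9.40 kb apart and CBX7 peaks 8.51 kb apart. In none of the 4 lists did a peak touch the regions of 2 members.

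Foxd3 had the highest CBX6 replicate 2, CBX7 and RING1B scores among the expressed members. Its gene lies on chromosome 4 from 99322990 to 99325362, and the RING1B peak over it (99322164 to 99327949, 5786 bp) had a score of 2707, with another RING1B peak just upstream (99317460 to 99322053, score 278). The scores of its highest peaks were 587 in CBX7, 359 in CBX6 replicate 2 and 249 in CBX6 replicate 1. Of the RING1B bases there, 61.4% lay under CBX7 and 62.6% under CBX6 replicate 2 peaks, both lower than at any of the 21 silent members. RING1B scores at the other expressed members with a RING1B peak were lower, with 264 at Foxj2, 90.8 at Foxo3 and 65.4 at Foxo1. Taking the highest RING1B score at each gene, the lowest among silent members was 948, at Foxi2. At Foxo6 that highest score, 1337, belongs to a peak within the gene, and the RING1B peak at its start had 476. Limited to scores of at least 100, 2 of the 16 expressed members kept a RING1B peak, Foxd3 and Foxj2. At Foxo1 a CBX6 replicate 2 peak (score 58.1) lay upstream and did not overlap the RING1B peak.

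The expressed members Foxh1, Foxj3, Foxk1, Foxk2, Foxm1, Foxn2, Foxn3, Foxp1, Foxp4 and Foxr1 had peaks in CBX6 replicate 1 and in no other list. Their highest scores there ran from 65.2 at Foxk2 to 385 at Foxp4. Over all 14 expressed members with a replicate 1 peak the median of the highest score was 210, against 275 at the 25 silent ones. Foxo4 and Foxr2, both expressed, had no peak in any list.

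**Figure D3:**
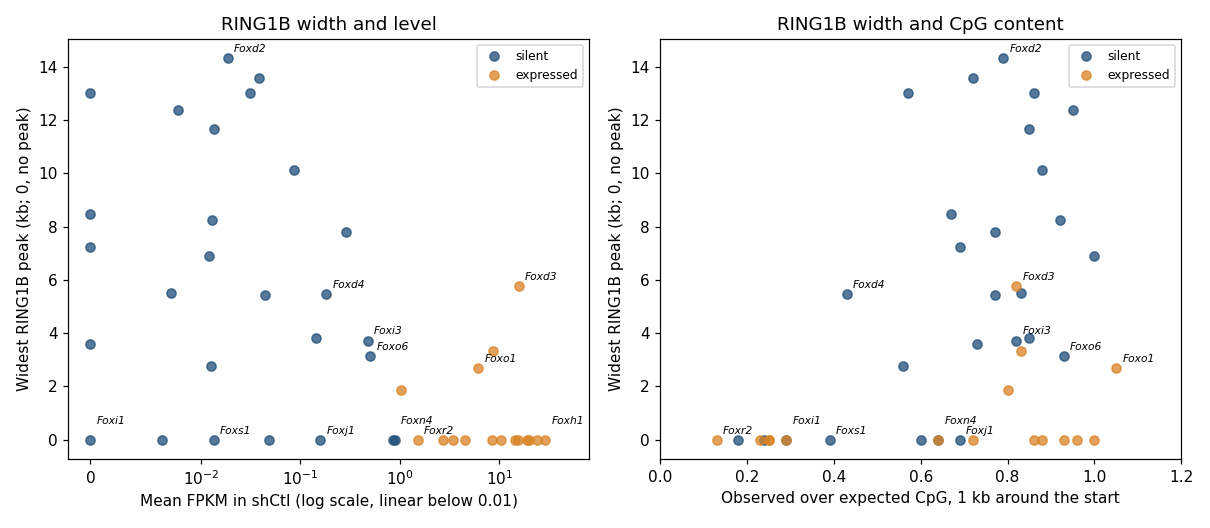
Width of the widest RING1B peak at 43 of the Fox genes in kb, with 0 for genes without a peak, against the mean FPKM with shCtl on a log axis that is linear below 0.01 (left) and against the ratio of observed to expected CpG in 1 kb around the annotated start (right). Points are genes, and the peaks wider than 6 kb were all at silent genes with a CpG ratio of 0.57 or more.

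Among the silent members, those with RING1B peaks had more CpG around the start. As a measure, the number of CG dinucleotides in 1 kb centred on the start was divided by the number its C and G content would give. The ratio had a median of 0.79 at the 21 silent members with RING1B and of 0.39 at the 7 without. Over all silent genes the medians were 0.66 with RING1B and 0.21 without. The ratio was at least 0.6 at 17 of the 21 and at 2 of the 7, Foxj1 (0.69) and Foxn4 (0.64), which were the silent members with a CBX7 peak and no RING1B peak. Foxa3, without either, lies just under this line at a ratio that rounds to 0.60. Foxi1 and Foxs1, whose upstream stretches are printed above, had ratios of 0.29 and 0.39, and Foxi3, Foxd1 and Foxf2 had 0.82, 0.77 and 0.86. Foxd4 was the lowest of those with RING1B, at 0.43.

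CpG content did not separate the expressed members in this way. The 4 with a RING1B peak had ratios from 0.80 to 1.05, and 7 of the 12 without one were also at 0.6 or more. Taking the highest ratio over all annotated starts of a gene raised this to 9 of 12, since the outermost starts of Foxk2 and Foxp1 lie outside CpG-rich sequence. Foxh1 and Foxr2 had 0.29 and 0.13 at the outermost start.

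Knockdown of Cbx6 was compared with shCtl to ask which Fox genes change with less CBX6. For the test, limma was fitted to log2(FPKM + 1) over the 11592 genes whose mean reached 1 FPKM with shCtl or with shCbx6, of which 18 are members. The other 26 members were too low to test, and Foxi3 and Foxa3 were tested because of their shCbx6 mean alone. At an adjusted p under 0.05, 0 members were higher and 0 were lower, where 0.0431% and 0.0518% of all tested genes were. At an unadjusted p under 0.05 in limma there were 4 members of 18 (22.2%), Foxi3, Foxh1, Foxk1 and Foxo3, against 11.7% of all tested genes. With either shCtl library left out there was 1 such member, without shCbx6 replicate 1 there were 2 and without shCbx6 replicate 2 there were 3. Both shCbx6 values lay above both shCtl values at 5 of 18 members (27.8%, against 18.9%), and below both at 4 (22.2%, against 24.4%). The median log2 fold change was 0.08 for the members and −0.01 for all tested genes. With 2 libraries in each group an exact permutation test of a single gene cannot reach 0.05, so none was made.

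Foxi3, a factor of ectodermal placodes, pharyngeal arches and hair follicles, had the largest difference among the tested members. It was read at 0.362 and 0.595 FPKM with shCtl and at 2.49 and 6.02 FPKM with shCbx6. Both shCbx6 values lie above both shCtl values, and shCbx6 replicate 2 lies well above shCbx6 replicate 1. The mean went from 0.479 ± 0.165 FPKM to 4.26 ± 2.49 FPKM (SD, n = 2 libraries each), a ratio of 8.89. In limma the log2 fold change was 1.75 on the log2(FPKM + 1) scale with a standard error of 0.357 and an adjusted p of 0.188, which does not pass the threshold. Fitted to all genes without a minimum level, the standard error was 0.454 and the limma adjusted p was 0.49. Over the libraries left out in turn the log2 fold change ran from 1.24 to 2.25, and it passed limma without shCbx6 replicate 1 (adjusted p = 0.00879). Since Foxi3 entered the test through the group where it is high, the p-values with a minimum level do not support a difference. Foxi3 was the 1 tested member past a 1.5-fold ratio upward (5.56%, against 7.63% of all tested genes), and 0 members were past it downward, against 6.56%. Its gene (chromosome 6, 70906525 to 70911060) had its start under peaks of all 4 lists, with scores of 253 and 1382 in CBX6 replicates 1 and 2, 2985 in CBX7 and 2938 in RING1B.

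Foxh1 was read at 28.3 and 29.5 FPKM with shCtl and at 40.7 and 38.2 FPKM with shCbx6, without overlap. Its log2 fold change was 0.44 with a standard error of 0.132, and its adjusted p in limma was 0.317. Foxk1, a regulator of glycolysis and autophagy, was read at 4.69 and 4.27 FPKM with shCtl and at 5.77 and 6.52 FPKM with shCbx6. The difference was 0.38 on the log2 scale with a standard error of 0.146, and its adjusted p in limma was 0.41. Foxo3, which acts in stress resistance and quiescence, went the other way without overlap, from 7.72 and 9.43 FPKM to 5.47 and 6.72 FPKM, a log2 fold change of −0.43 with a standard error of 0.171, and its adjusted p in limma was 0.427.

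Foxd3 was read at 14.8 and 10.9 FPKM in the shCbx6 libraries, against 16.0 and 15.0 FPKM with shCtl. Both values are lower, and shCbx6 replicate 1 lies close to the lower shCtl value (limma adjusted p = 0.634, log2 fold change −0.27 with a standard error of 0.179). With libraries left out in turn the log2 fold change ran from −0.47 to −0.07, the latter without shCbx6 replicate 2. Foxn2 and Foxr2 were also below both shCtl values, Foxn2 at 14.2 and 12.4 FPKM with shCbx6 (log2 fold change −0.21) and Foxr2 at 1.26 and 0.892 FPKM (−0.28). Foxn3 and Foxr1 were above both, Foxn3 at 4.15 and 4.41 FPKM (0.26) and Foxr1 at 3.28 and 3.68 FPKM (0.27). None of these 4 passed the limma threshold.

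The other broadly expressed members had overlapping groups. With shCbx6, Foxo4 was read at 21.9 and 27.4 FPKM, Foxp4 at 16.1 and 19.9 FPKM, Foxm1 at 18.8 and 18.1 FPKM, Foxk2 at 14.6 and 15.4 FPKM and Foxj3 at 10.2 and 10.4 FPKM. Their log2 fold changes lay between −0.13 and 0.05, and the sign of each changed in at least 1 alternative. Foxp1 was read at 11.8 and 8.63 FPKM and Foxo1 at 5.82 and 8.19 FPKM, with log2 fold changes of 0.25 and 0.15. Foxj2, at 0.953 and 1.42 FPKM, differed by 0.11 and Foxa3 by 0.16.

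**Figure D4:**
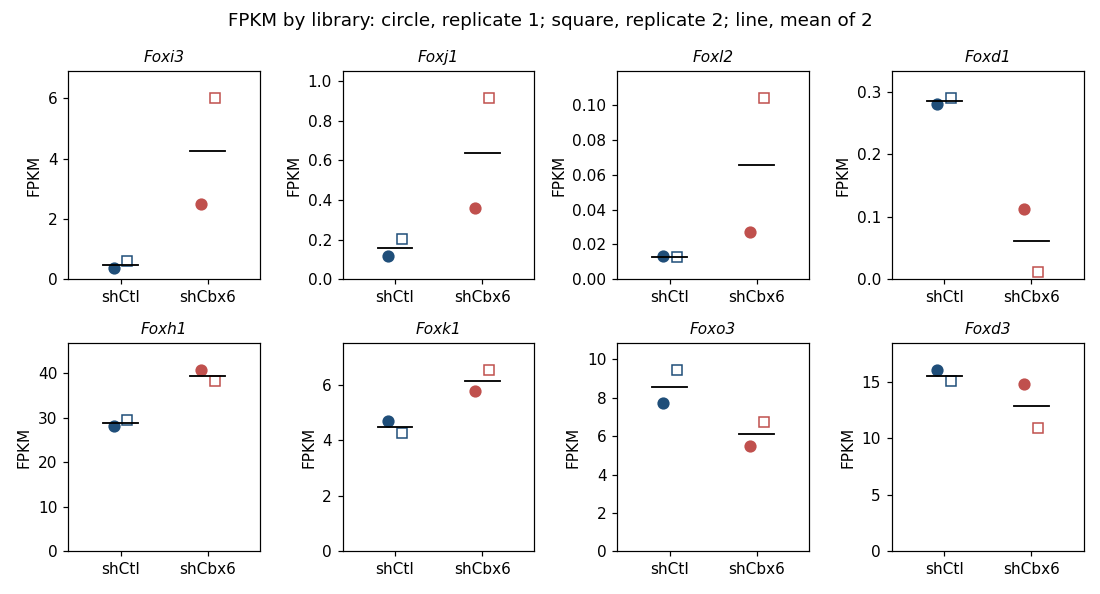
FPKM of 8 Fox genes in the shCtl and shCbx6 libraries, each panel with its own axis from 0. Circles are replicate 1, squares replicate 2 and lines the mean of 2 libraries. The genes drawn are among the members whose groups do not overlap. Of the 18 tested members, 5 were above and 4 below without overlap, against 18.9% and 24.4% of all tested genes.

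Below the level of the test, some silent members differed by a ratio of 2 or more between the group means, and these are given as values only. Foxj1 was read at 0.114 and 0.201 FPKM with shCtl and at 0.359 and 0.914 FPKM with shCbx6, a ratio of 4.04. Foxl2 had 0.0130 and 0.0129 FPKM with shCtl and 0.0273 and 0.104 FPKM with shCbx6, which at these depths stands in the ratio 1 to 1 to 2 to 9, with each number whole to within 0.1. Like Foxi3, both were highest in shCbx6 replicate 2.

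Foxd1, a gene of kidney stroma and retina, was read at 0.281 and 0.291 FPKM with shCtl and at 0.112 and 0.0119 FPKM with shCbx6. Taken by depth these values stand in the ratio 21 to 22 to 8 to 1, so the lowest may rest on a single fragment. The shCtl mean was 4.62 times the shCbx6 mean. Fitted without a minimum level, limma gave a log2 fold change of −0.28 for Foxd1 (adjusted p = 0.436), a value that the pseudocount of 1 holds near 0. Foxa2, the endoderm and floor plate factor, had 0.0471 and 0.0155 FPKM with shCtl and 0 and 0.0139 FPKM with shCbx6, a ratio of 3 to 1 to 0 to 1. Foxd2 had 0.0125 and 0.0247 FPKM with shCtl and 0 and 0.0111 FPKM with shCbx6. At these levels Foxa2 and Foxd2 differ by a few fragments at most.

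Of the other silent members, Foxo6, Foxn4 and Foxa3 had the highest levels, and their groups overlap. Foxo6 was read at 0.325 and 0.68 FPKM with shCtl and 0.34 and 0.415 FPKM with shCbx6, and Foxn4 at 0.884 and 0.895 FPKM and at 0.48 and 1.08 FPKM. Foxb2, of the brain, was listed at 0 except for 0.0204 FPKM with shCbx6 replicate 2, and Foxn1 at 0 except for 0.0130 FPKM with shCtl replicate 2. Foxa3 had 0.593 and 1.11 FPKM with shCtl and 1.05 and 1.05 FPKM with shCbx6. Of the 21 silent members in all 4 lists, Foxi3 was the 1 that reached 1 FPKM in a shCbx6 library.

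Partners and targets of the expressed members were taken from 4 lists of general knowledge. For FOXM1, 20 mitotic genes such as Ccnb1, Plk1 and Aurkb were all tested, and 0 passed limma in either direction, 0 had an unadjusted p under 0.05 and 0 were past 1.5-fold. Of all tested genes, 11.7% had such a p, and 7.63% and 6.56% were past 1.5-fold upward and downward. Their median log2 fold change was −0.05, with −0.25 at Ccnb2 and −0.24 at Ttk as the lowest and 0.32 at Cdc20 and 0.25 at Plk1 as the highest. Foxm1 itself differed by −0.04. CBX6 replicate 1 had peaks at 18 of the 20 genes, where 79.5% of all expressed genes have one, and the other 3 lists at 0, against 12.0% (CBX6 replicate 2), 11.5% (CBX7) and 9.54% (RING1B) of expressed genes.

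For the FOXO factors, 22 of 24 pathway genes were tested and 0 passed limma, with 7 at an unadjusted p under 0.05, against 11.7% of all tested genes, and a median log2 fold change of −0.09. Past 1.5-fold upward, as were 7.63% of all tested genes, were Irs2, the insulin receptor substrate, at 1.21 and 1.58 FPKM with shCtl and 2.18 and 3.69 FPKM with shCbx6, the apoptosis gene Bcl2l11, at 4.76 and 5.69 FPKM and at 6.88 and 11.6 FPKM, and Gadd45b, whose groups overlap. Past it downward were 4 genes, against 6.56% of all tested genes. The mitochondrial superoxide dismutase gene Sod2 was read at 48.1 and 61.5 FPKM with shCtl and at 33.4 and 26.8 FPKM with shCbx6 (log2 fold change −0.84, limma adjusted p = 0.227). Trib3, an inhibitor of AKT, had the lowest log2 fold change, −0.89, with 16.4 and 25.1 FPKM with shCtl and 7.90 and 13.8 FPKM with shCbx6, and Sgk1, a kinase that acts on FOXO factors, and Sirt1, a deacetylase that does, were both at −0.69. Peaks of CBX6 replicate 1 lay at all 24 genes, of CBX6 replicate 2 at 7, of CBX7 at 8 and of RING1B at 5, against 79.5%, 12.0%, 11.5% and 9.54% of expressed genes, since most of this list is expressed.

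For FOXH1, 10 of 14 partners and targets of Nodal signalling were tested, 0 passed limma and 1 had an unadjusted p under 0.05, against 11.7% of all tested genes. Past 1.5-fold were 1 gene upward and 2 downward, Tdgf1 and Lefty2, against 7.63% and 6.56%. The gene with the low p was Tdgf1, the Nodal coreceptor, with 517 and 534 FPKM with shCtl and 372 and 277 FPKM with shCbx6 (log2 fold change −0.71, limma adjusted p = 0.30). Tdgf1 also stands among the ESC markers. Lefty2, a Nodal target, was read at 62.9 and 39.5 FPKM with shCtl and at 60.3 and 7.78 FPKM with shCbx6, so its difference lies in shCbx6 replicate 2 alone. The activin receptor gene Acvr2b differed by 0.11 on the log2 scale. The median of the list was −0.15. CBX6 replicate 1 had peaks at 13 of the 14 genes, CBX6 replicate 2 at 8, CBX7 at 6 and RING1B at 7, against 56.9%, 16.6%, 17.9% and 16.1% of all genes, since the list holds both expressed and silent genes.

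Of 16 genes that work with FOXA factors in endoderm, 12 were too low to test, among them Gata4, Gata6 and Sox17. Lama1, a laminin of the basement membrane that endoderm lays down, was read at 9.95 and 9.30 FPKM with shCtl and at 2.90 and 2.04 FPKM with shCbx6 (limma adjusted p = 0.0757, log2 fold change −1.62 with a standard error of 0.176). Lama1 and Dab2 also stand among the primitive endoderm markers. The log2 fold change of Eomes was 0.01, and that of Dab2 was 0.40. Of the 4 genes tested, 0 passed limma and Lama1 was the 1 gene with an unadjusted p under 0.05, against 11.7% of all tested genes. Past 1.5-fold were Dab2 upward and Lama1 downward, against 7.63% and 6.56%. Dab2 was read at 0.6569 and 0.5765 FPKM with shCtl and at 0.6991 and 1.665 FPKM with shCbx6. It was tested through its shCbx6 mean alone, so its ratio does not support a difference. Most of the rise lies in shCbx6 replicate 2. RING1B and CBX7 peaks each lay at 8 of the 16 genes, CBX6 replicate 2 peaks at 7 and CBX6 replicate 1 peaks at 11, against 22.6%, 24.3%, 21.2% and 34.3% of all silent genes, since most of this list was too low to test.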

How the data were processed

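The series holds 11 samples, 7 ChIP-seq and 4 RNA-seq. The control ChIP samples were left aside. RNA reads were placed on mm9 by the authors with TopHat, and the deposited FPKM values are Cufflinks estimates for RefSeq transcripts; how transcripts were combined for each symbol, and whether strand was used, is not given in the sources used here. ChIP reads with a single place on mm9 were kept by the authors with Bowtie, peaks were called per sample with MACS (shift size 75 bp), and the deposited score of each peak is the MACS score. Versions are not given in the sources used here. The anti-HA and CBX7 ChIP used a kit and the RING1B ChIP another protocol, so scores and widths are not on one scale between lists.

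The deposited FPKM table has 23290 rows, 25 of them dates in place of symbols; of 2 repeated symbols the row with the higher mean was used. Coordinates came from GENCODE M1 on mm9 (21149 symbols by name, 772 by a synonym; Foxf1 as Foxf1a). A gene's start is its outermost annotated 5′ end. limma (version 3.58.1, R 4.3.3) was run with lmFit and eBayes with a trend, no replicate term and Benjamini-Hochberg adjustment over 11592 genes. Peaks, sequences and counts were processed in Python 3.11.15 (numpy 2.4.6, pandas 2.3.3, matplotlib 3.10.9). The fit was checked beforehand on simulated data. Values at few fragments were multiplied by relative depth, divided by a common step and called whole within 0.1.

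The members, the lists, the roles and the tests were chosen with earlier results of these data known. Named are all members with a mean of at least 1 FPKM, silent members with a ratio of group means of at least 2, and in each other list the 2 highest and the 2 lowest log2 fold changes; other genes past 1.5-fold were added after their values were seen. Some genes that the rule takes in are not reported here or drawn, and are kept in the counts.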

Additional observations from a re-analysis of the deposited data

How the results depend on the processing

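Depth is unknown for the peak lists, so a gene without a peak may hold one that was not detectable. Of 176 values of single members under the alternatives, 163 kept their direction and their side of the threshold. Foxi3, tested through its shCbx6 mean alone, passed limma in 2 of them, and its adjusted p was between 0.143 and 0.739 in the others. Without shCbx6 replicate 1 it gave 2.25, with the lone shCbx6 library assumed to vary like the shCtl ones. With the replicate number as a block it gave 1.75 (limma adjusted p = 0.0364), which made 1 member called higher instead of 0 and moved the calls over all genes from 5 higher and 6 lower to 183 and 205. Same-numbered libraries deviated together with a correlation of 0.266, but the labels tie the numbers to no shared culture or day, so the block was not used. The members called higher numbered 0 to 1 with libraries left out in turn, and those called lower stayed at 0. Past 1.5-fold upward were 1 to 2 members and past it downward 0 to 2 with libraries left out. Without a minimum level the counts were 6 upward and 7 downward, which takes in members at a few fragments, and with a mean of at least 3 FPKM over all 4 libraries 0 were upward, since Foxi3 is not tested there. Over all genes the calls ran from 5 to 267 higher and from 8 to 131 lower with libraries left out, were 11 and 6 with a pseudocount of 0.1, and were 6 and 20 without a minimum level.

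Direction changed in 11 values, all near 0, and the cause was not tested. With quantile normalization Foxj3 was at 0.00036. The ranges over libraries left out in turn were −0.04 to 0.36 for Foxa3, −0.05 to 0.27 for Foxj2, −0.06 to 0.0034 for Foxj3, −0.08 to 0.18 for Foxk2, −0.10 to 0.02 for Foxm1, −0.06 to 0.37 for Foxo1, −0.12 to 0.19 for Foxo4, −0.0039 to 0.50 for Foxp1 and −0.28 to 0.01 for Foxp4. Counts of members with a peak stayed within 1.5 times under every alternative for each list, and so did the silent members with a RING1B peak. The expressed members with a RING1B peak went to 2 of 16 at scores of at least 100.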
